A study of Mus musculus with 12 samples.

Results

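The genes described here are 35 genes of the endoplasmic reticulum (ER), chosen by symbol from the 23282 entries that were counted in each skin library. They encode chaperones and disulfide isomerases that fold new proteins, the sensors and transcription factors of the unfolded protein response, the machinery that removes misfolded proteins, and the channel through which proteins enter the ER. Skin RNA came from 5 AD mice and 7 HF + AD mice (labelled AD+OB), all wild-type male C57BL/6J animals obtained at 5 weeks of age and fasted before collection, with 1 library per mouse. In both groups, atopic dermatitis (AD)-like lesions were induced by painting 0.5% DNCB, a sensitizing hapten, on the back 3 times per week for 6 weeks, and distilled water was given as the vehicle. The AD mice ate normal chow, whereas the HF + AD mice ate a diet with 60 kcal% fat for 4 weeks before the first DNCB application and for the 6 weeks of its use. The comparison asks whether the skin of lesioned mice with diet-induced obesity differed in its ER folding and stress genes from that of lesioned mice without it.

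Proteins that are secreted or inserted in membranes enter the ER through the Sec61 channel, where the chaperone BiP (Hspa5), lectin chaperones and disulfide isomerases help them fold. When unfolded proteins build up, the sensors IRE1 (Ern1), PERK (Eif2ak3) and ATF6 raise the output of chaperone genes, and PERK slows translation while the factor ATF4 is made in greater amount, mainly through control of its translation. Keratinocytes, sebocytes and dermal fibroblasts all send large amounts of protein or lipid through this compartment.

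A sequence that ATF6 and XBP1 use to switch on chaperone genes, the ER stress response element, reads CCAAT, then 9 bases of any kind, then CCACG. It was searched on both strands of the RefSeq windows that reach from 250 bases before to 50 bases after each gene start (GRCm38.p6), and such windows were matched to 29 of the 35 genes. No window was matched to Hyou1, Manf, Atf6, Derl1, Sec61a1 and Ssr2. Of all 32851 windows, 39 held the element, or 0.119%, whereas a gene was counted if any of its windows held it. Among the 90 other ER and stress genes with a window, described below, it was found in 2 (Ero1lb and Derl3). Of the 29 genes, 8 held it. The copies are shown because 2 of their carriers, Hspa5 and Calr, are among the 5 genes that differed between the groups (Atf4, Pdia3 and Ssr3 have no copy in their windows), and each is written in the direction of the element with its fixed letters in capitals. In Hsp90b1 there were 2 copies.
Hspa5: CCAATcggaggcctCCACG
Calr: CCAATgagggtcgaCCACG
Hsp90b1, first copy: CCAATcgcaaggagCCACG
Hsp90b1, second copy: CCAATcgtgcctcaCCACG
Dnajc3: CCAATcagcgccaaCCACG
Creld2: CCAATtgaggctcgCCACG
Canx: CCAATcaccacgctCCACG
Pdia6: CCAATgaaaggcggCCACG
Syvn1: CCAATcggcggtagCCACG

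The whole windows of the 2 carriers that passed the test of difference place this element in its promoter. In Hspa5 (chr2:34771840-34772139, plus strand) the copy began 65 bases before the RefSeq start, which lies inside the span of the gene in GENCODE M21 given with its values.
Hspa5 window: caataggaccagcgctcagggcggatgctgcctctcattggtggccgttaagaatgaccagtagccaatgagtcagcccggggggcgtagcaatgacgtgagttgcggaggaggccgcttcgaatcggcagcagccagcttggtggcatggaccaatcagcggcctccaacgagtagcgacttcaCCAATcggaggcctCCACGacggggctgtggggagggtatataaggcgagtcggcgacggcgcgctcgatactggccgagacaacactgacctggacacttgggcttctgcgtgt
In Calr (chr8:84846882-84847181, minus strand) the copy began 162 bases before the RefSeq start and lay on the opposite strand, so that its complement is in capitals.
Calr window: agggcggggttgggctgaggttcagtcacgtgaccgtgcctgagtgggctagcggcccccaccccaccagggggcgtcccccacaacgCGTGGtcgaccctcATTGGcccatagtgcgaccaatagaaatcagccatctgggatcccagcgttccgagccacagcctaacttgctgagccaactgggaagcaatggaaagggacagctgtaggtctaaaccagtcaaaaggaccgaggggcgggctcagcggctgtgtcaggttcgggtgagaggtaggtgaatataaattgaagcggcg
A match of letters is a description and does not show that a factor was bound there.

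Between 9746937 and 13462434 reads per mouse were counted on genes. A count of 0, which allows up to 3 counts, stands for 0.223 to 0.308 CPM of the unadjusted library total, for counting error only. All other CPM are counts scaled to the TMM-adjusted library total. At least 1 read was found on 13100 to 15063 entries per AD mouse and on 15522 to 16677 per HF + AD mouse, with no overlap, so that low counts are less reliable in the AD group. Markers of skin were present in every mouse. Beside the counts of markers that follow, 4.43% of all genes tested were higher and 4.77% lower in HF + AD mice (edgeR adjusted p under 0.05). Of the basal keratinocyte list, 3 of 6 genes were higher in the HF + AD group (Krt5, Krt14 and Krt15) and none was lower, and their summed level was 3531 to 5286 CPM in AD mice and 6168 to 10860 CPM in HF + AD mice. The hair shaft list had 3 of 9 genes higher (Krt31, Krt34 and Krt86), with sums of 2577 to 5276 CPM and 3979 to 6584 CPM. For skeletal muscle, 1 of 10 genes was lower (Acta1), with sums of 1302 to 2876 CPM and 839 to 2100 CPM, and for sebocytes 1 of 7 was higher (Awat1), with 1276 to 2370 CPM and 1060 to 1849 CPM. No gene passed the test among 5 suprabasal keratinocyte genes (477 to 2451 CPM and 453 to 1614 CPM), 7 dermal fibroblast genes (3297 to 9935 CPM and 3320 to 10350 CPM), 6 tested adipocyte genes (97.6 to 727 CPM and 72.0 to 555 CPM) or 7 macrophage and dendritic cell genes (18.8 to 65.9 CPM and 30.0 to 126 CPM). The adipocyte sums also include Lep, which was not tested. Of genes that mark B and plasma cells, which carry a large ER, Tnfrsf17 was at 0 in every mouse, and Cd79a, Ms4a1 and Pou2af1 were at 0 in the AD mice and had at most 3 reads in an HF + AD mouse. Reads on Cd79b, Mzb1 and Jchain were found in 1, 2 and 1 of the 5 AD mice (at most 42, 47 and 20 reads) and in 4, 3 and 6 of the 7 HF + AD mice (at most 11, 13 and 28 reads). None of these genes could be tested. In whole skin, fewer cells of a type and less RNA per cell cannot be told apart. The part of these other differences in the ER results was not tested.

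Of the 35 ER genes, 34 could be tested, Ern1 being too low, and 5 differed between the groups at an adjusted p under 0.05 (edgeR's quasi-likelihood test, adjusted over all 14163 genes tested). These 5 are 14.7% of those tested, against 9.2% of all genes. Hspa5, Calr and Pdia3 rose in HF + AD skin, whereas Atf4 and Ssr3 fell. Among all genes, 4.43% were called higher and 4.77% lower. The median log2 fold change of HF + AD over AD was 0.15 for the 34 ER genes and 0.023 for all genes. Above 0 were 22 of the 34, and 7325 of the 14163 genes tested. Without HF + AD mouse 5 the median of the ER genes was 0.079. An unadjusted p under 0.05 was found for 11 ER genes with higher and 5 with lower levels in HF + AD mice, whereas 25.1% of all genes reached it, 12.3% higher and 12.8% lower. The values of the groups did not overlap for Hspa5, Calr, Sec61a1 and Atf4, 4 of the 34, against 5.46% of all genes tested. The first 3 were higher in HF + AD mice and Atf4 was lower, where 2.9% and 2.56% of all genes were separate in these directions.

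**Figure D1:**
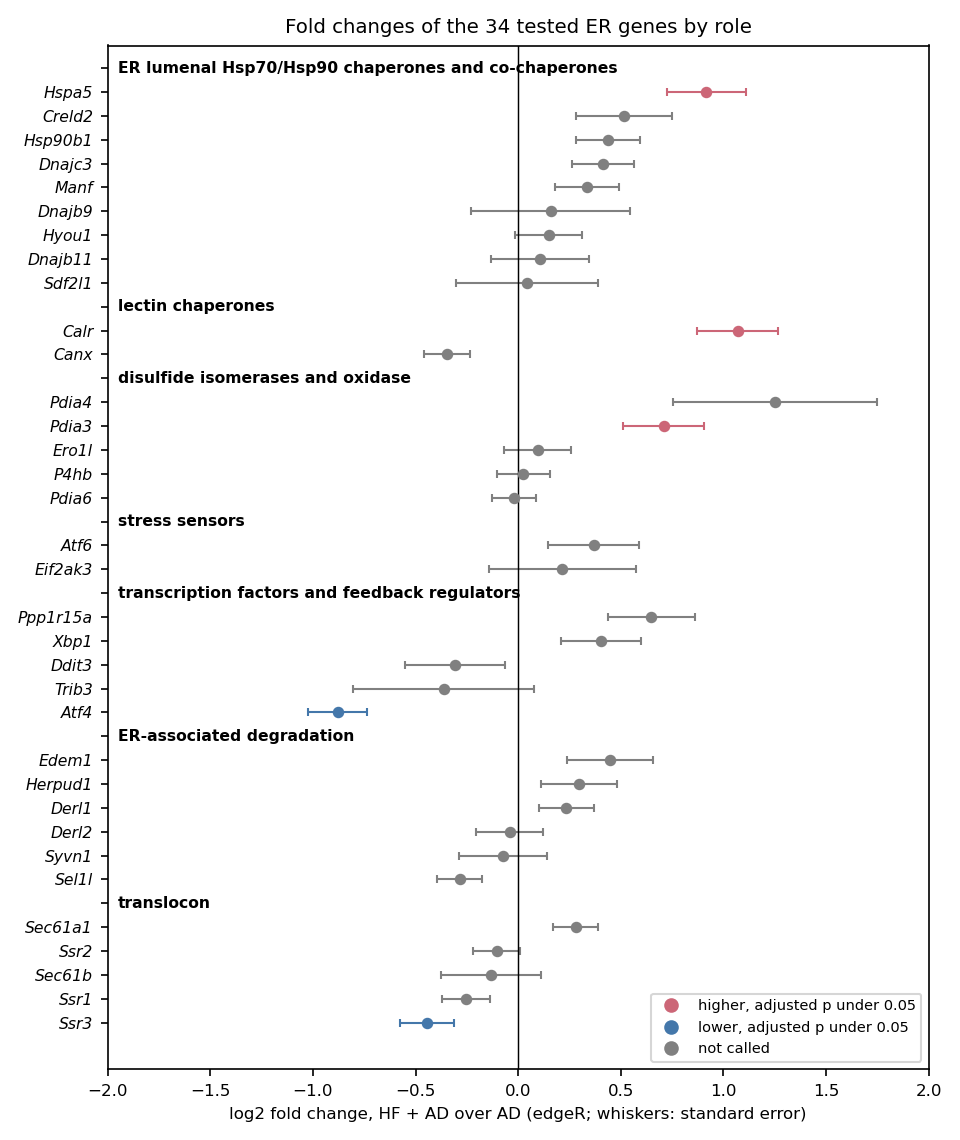
Log2 fold changes of HF + AD (n = 7) over AD (n = 5) for the 34 tested ER genes, grouped by role, with whiskers for the standard error of the edgeR fit. Hspa5 (0.92), Calr (1.07) and Pdia3 (0.71) are marked as higher and Atf4 (−0.88) and Ssr3 (−0.44) as lower, and the 9 chaperones of the first group all lie to the right of 0.

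The first group holds the Hsp70 and Hsp90 chaperones of the ER lumen and their helpers. All 9 had a log2 fold change above 0, from 0.043 to 0.92 with a median of 0.33, and 1 of them, Hspa5, passed the adjusted threshold. In some alternatives Hyou1, Dnajb9, Dnajb11 and Sdf2l1 fell below 0. Hspa5 (chromosome 2, 34771970 to 34777547) encodes BiP, the main Hsp70 of the ER, which binds unfolded stretches and keeps the stress sensors inactive. Its level was 459.7, 303.3, 452.2, 344.8 and 305.8 CPM in the 5 AD mice, and 547 at the lowest, 620 at the median and 1170 CPM at the highest in the HF + AD mice. Each of the 7 HF + AD mice exceeded the highest AD mouse, with mean levels of 704 ± 218 CPM (SD, n = 7) and 373 ± 77.4 CPM (SD, n = 5). The log2 fold change was 0.92 with a standard error of 0.19, or 1.89-fold (edgeR adjusted p = 0.0103). HF + AD mouse 1 had the highest level, and without it the log2 fold change was 0.75. Hspa5 was called in each of 21 alternative analyses, with an adjusted p between 0.000143 and 0.0335.

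Hsp90b1 encodes GRP94, the Hsp90 of the ER, which folds integrins and Toll-like receptors. AD mice had levels of 159.5, 144.5, 147.5, 146.3 and 108.0 CPM, and HF + AD mice had 145 at the lowest, 171 at the median and 262 CPM at the highest. The groups overlapped, with 6 of the 7 HF + AD mice above every AD mouse, and a log2 fold change of 0.44 with a standard error of 0.16 missed the threshold (edgeR adjusted p = 0.0909). Dnajc3, a co-chaperone that also restrains PERK, had a log2 fold change of 0.41 and Creld2, a disulfide isomerase-like protein induced by ER stress, one of 0.52, with unadjusted p = 0.0142 and 0.0402 from edgeR's test. Manf, a secreted ER stress protein, stood at 0.33 on the same scale. Neither these 3 genes nor Hyou1 (0.15), Dnajb9 (0.16), Dnajb11 (0.10) and Sdf2l1 (0.043) passed in the analysis as reported or in any alternative. For Dnajb9, Dnajb11 and Sdf2l1 the AD mice spread more widely than the HF + AD mice, with SDs of 6.58, 11.8 and 10.7 CPM (n = 5) against 2.41, 5.18 and 4.84 CPM (n = 7).

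The lectin chaperones calreticulin (Calr) and calnexin (Canx) hold glycoproteins by their sugar chains, the first free in the lumen and the second anchored in the ER membrane. Calr (chromosome 8, 84841850 to 84846934) was at 152.7, 225.3, 161.8, 257.4 and 221.4 CPM in the AD mice and at 274 (lowest), 449 (median) and 574 CPM (highest) in the HF + AD mice. No HF + AD mouse fell within the range of the AD mice. The rise of 1.07 on the log2 scale (standard error 0.20), or 2.10-fold, had an edgeR adjusted p of 0.00674, and it was called in all 21 alternatives, with a log2 fold change of 0.98 to 1.17 when 1 mouse was left out. Canx ranged from 375 to 533 CPM in AD mice and from 332 to 391 CPM in HF + AD mice. Here 5 of the 7 HF + AD mice lay below all AD mice. Canx had a log2 fold change of −0.35 (standard error 0.11), which did not pass the adjusted threshold (edgeR adjusted p = 0.0604) but passed with DESeq2's Wald test and without AD mouse 3. Both genes carry the ER stress response element printed above.

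Disulfide isomerases form and reshuffle the disulfide bonds of new proteins, and Ero1l reoxidizes them. Of these 5 genes 1 rose, and 4 were not called. Pdia3 (chromosome 2, 121413775 to 121438687), the isomerase that works with calnexin and calreticulin, was at 151.4, 152.0, 165.2, 151.3 and 117.0 CPM in AD mice, and at 139 (lowest), 252 (median) and 335 CPM (highest) in HF + AD mice. The groups overlapped, since HF + AD mice 3 and 5 lay within the AD range and the other 5 above it. Its log2 fold change was 0.71 (standard error 0.20, 1.63-fold, edgeR adjusted p = 0.0329). Leaving out 1 of AD mice 2, 4 and 5 or 1 of HF + AD mice 1, 2, 4 and 6 ended the call. There the log2 fold change was 0.61 to 0.72, against 0.71 with all mice. The call was kept in 12 of 21 alternatives. Pdia4 had the largest log2 fold change of the 34 ER genes, 1.25, but also a standard error of 0.50, and did not pass (edgeR adjusted p = 0.123). Its levels were low, at 1.00 to 11.2 CPM in AD mice and 5.90 to 23.3 CPM in HF + AD mice. By contrast, Pdia6 and P4hb, the classical protein disulfide isomerase, had means of 426 ± 29.3 and 365 ± 57.1 CPM (SD, n = 5) in AD mice and 420 ± 35.6 and 372 ± 42.8 CPM (SD, n = 7) in HF + AD mice, so that their differences were smaller than the SD. The log2 fold changes were −0.021 (standard error 0.11) and 0.026 (standard error 0.13), and that of Ero1l was 0.094 (standard error 0.16).

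**Figure D2:**
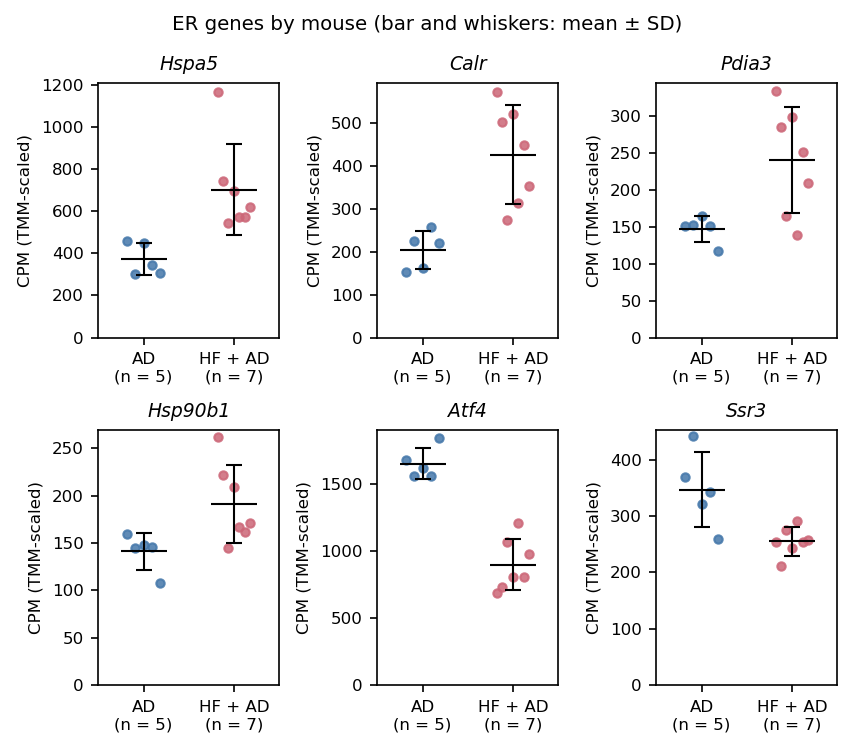
Levels of 6 ER genes in each mouse, in CPM on TMM-scaled totals, with a linear axis from 0, 1 point per mouse and the mean ± SD of 5 AD and 7 HF + AD mice. The groups are separate for Hspa5, Calr and Atf4, whereas they overlap for Pdia3, Hsp90b1 and Ssr3.

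Among the stress sensors, no difference passed the test. Ern1 encodes IRE1, which splices the Xbp1 message. No read was counted on it in AD mice 1 to 4 and 6 reads in AD mouse 5 (0.54 CPM), against 0 reads in HF + AD mice 5 and 6 and up to 23 reads (1.73 CPM) in mouse 7. Its counts were too few for a test, and no fold change is given. Eif2ak3, which encodes PERK, was at 7.99, 9.22, 8.79, 15.2 and 8.06 CPM in AD mice and 6.96 (lowest), 8.82 (median) and 23.0 CPM (highest) in HF + AD mice. Atf6 was at 15.0, 39.8, 28.3, 26.6 and 26.3 CPM in AD mice and 27.4 (lowest), 33.2 (median) and 46.2 CPM (highest) in HF + AD mice. For both genes the groups overlapped broadly. The log2 fold changes were 0.21 (standard error 0.36) for Eif2ak3 and 0.37 (standard error 0.22) for Atf6, with edgeR adjusted p = 0.763 and 0.322.

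Of the transcription factors and feedback regulators, 1 of 5 fell and none rose. Atf4 (chromosome 15, 80255184 to 80257541), the factor through which PERK and other eIF2α kinases raise amino acid and antioxidant genes, was the clearest difference of all 34 ER genes, with the smallest adjusted p. It was at 1681, 1556, 1619, 1561 and 1844 CPM in the AD mice. In the HF + AD mice it was 685 at the lowest, 808 at the median and 1206 CPM at the highest, and every one of the 7 lay below every AD mouse. The log2 fold change was −0.88 (standard error 0.14), or 1.84-fold lower (edgeR adjusted p = 0.00459). Atf4 was called lower in all 21 alternatives, with an adjusted p between 9.89e-07 and 0.0307, and when 1 mouse was left out the log2 fold change lay between −0.97 and −0.82.

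Xbp1, the factor made when IRE1 splices its message, was at 77.2, 119.0, 84.9, 85.6 and 75.6 CPM in AD mice and at 76.1 (lowest), 111 (median) and 187 CPM (highest) in HF + AD mice. Counts at the 3′ end do not tell the spliced from the unspliced form. The groups overlapped, and its log2 fold change of 0.40 (standard error 0.20) had an edgeR adjusted p of 0.208. Ddit3, which encodes the death-promoting factor CHOP, was at 27.0, 72.2, 31.2, 28.9 and 27.7 CPM in AD mice and between 25.4 and 37.9 CPM, with a median of 28.8, in HF + AD mice. AD mouse 2 stood apart, and the log2 fold change was −0.31 with it and 0.072 without it, neither of which passed. Trib3, an inhibitor of ATF4 and CHOP that they induce, had a log2 fold change of −0.36 (standard error 0.44). Ppp1r15a (GADD34), which restores translation by guiding a phosphatase to eIF2α, had one of 0.65 (standard error 0.21), where 6 of the 7 HF + AD mice exceeded the highest AD mouse (12.9 to 21.2 CPM in AD mice, 18.5 to 32.6 CPM in HF + AD mice). It did not pass (edgeR adjusted p = 0.0625), whereas it passed with DESeq2's Wald test and when only genes with at least 10 counts in every library were tested.

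The 6 genes of ER-associated degradation pull misfolded proteins out of the ER and tag them for the proteasome. None of them was called, and 3 had log2 fold changes above and 3 below 0, between −0.29 and 0.45. Sel1l, the partner of the ubiquitin ligase Syvn1, was at 204 to 251 CPM in AD mice and 169 to 209 CPM in HF + AD mice, with a log2 fold change of −0.29 (standard error 0.11, edgeR adjusted p = 0.113). Edem1, which directs glycoproteins to degradation, was at 17.7 to 49.6 CPM and 40.2 to 50.2 CPM, with a log2 fold change of 0.45 (standard error 0.21, edgeR adjusted p = 0.191). For Herpud1, a scaffold of the same complex, Derl1, Derl2 and Syvn1 the values were 0.30, 0.23, −0.042 and −0.075 on the log2 fold scale.

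In the translocon group, 1 of 5 genes fell. Ssr3 (chromosome 3, 65379655 to 65392623), a subunit of the TRAP complex that helps nascent chains enter the channel, was at 370.3, 441.7, 321.8, 342.2 and 259.2 CPM in AD mice and at 211 (lowest), 254 (median) and 292 CPM (highest) in HF + AD mice. Below all AD mice were 5 of the 7 HF + AD mice, and AD mouse 5 lay within the HF + AD range. The log2 fold change of −0.44 (standard error 0.13, edgeR adjusted p = 0.0450) was just under the threshold. It passed in 6 of 21 alternatives, and when 1 mouse was left out it passed only in the absence of AD mouse 5 (−0.53) or of HF + AD mouse 5 (−0.48). The other TRAP subunits, Ssr1 and Ssr2, had log2 fold changes of −0.25 and −0.10 and were not called. Sec61a1, the pore of the channel, was at 467 to 546 CPM in AD mice and 557 to 735 CPM in HF + AD mice, without overlap, but the difference of 0.28 on the log2 scale (standard error 0.11) missed the threshold (edgeR adjusted p = 0.114). Sec61b, a small subunit of the same channel, had a log2 fold change of −0.13 (standard error 0.24).

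The genes did not follow 1 common pattern across mice. HF + AD mouse 1 had the highest level of its group in 17 of the 34 tested ER genes and the highest of all 12 mice in 14, whereas no other mouse was the highest of all 12 in more than 6. The summed level of the 16 chaperones, lectins and isomerases was 2326 to 2640 CPM in AD mice and 2691 to 4131 CPM in HF + AD mice, with the highest value in HF + AD mouse 1 and the next at 3301 CPM. This sum includes the called genes Hspa5, Calr and Pdia3. A sum without them was not taken, so that it does not show a rise of the other chaperones and isomerases. Over all 35 genes, where the fall of Atf4 is included, the sums overlapped, at 6182 to 6598 CPM and 5957 to 7211 CPM. Among the carriers of the ER stress response element, 2 of 8 were called (Hspa5 and Calr), where 9.2% of all genes tested were called. A log2 fold change above 0 was found for 5 of the 8 carriers. The same held for 22 of the 34 tested ER genes and 7325 of all 14163 genes. Canx, Pdia6 and Syvn1 carry the element as well, with log2 fold changes of −0.35, −0.021 and −0.075. Pdia3 rose and has no copy in its window.

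A further 111 ER and stress response genes of the same roles were read from the same fit, of which 107 were tested. Of these, 10 were higher and 4 lower, or 13.1%, against the 9.2% of all genes. The other folding enzymes had 2 of 27 higher and none lower, the other degradation genes 1 of 18 higher and none lower, and the other genes of translocation, signal peptide removal and N-glycosylation none higher and 4 of 27 lower. In the group of the other unfolded protein and integrated stress response genes, 7 of 35 were higher and none was lower.

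Chac1, which breaks down glutathione and is induced by ATF4 and CHOP, was at 23.1, 35.9, 35.8, 27.7 and 56.9 CPM in AD mice and 78.2 (lowest), 103 (median) and 134 CPM (highest) in HF + AD mice. The groups were separate, and its log2 fold change of 1.51 (standard error 0.21, 2.85-fold, edgeR adjusted p = 0.00252) was called in all 21 alternatives. Slc3a2, the heavy chain shared by several amino acid transporters, was at 30.4, 43.3, 32.7, 40.5 and 56.0 CPM in AD mice and 61.5 (lowest), 81.7 (median) and 184 CPM (highest) in HF + AD mice, again without overlap. It rose by 1.33 on the log2 scale (standard error 0.27, edgeR adjusted p = 0.00866), and by 1.12 without HF + AD mouse 1, which had the highest level. Aars and Sars, which load alanine and serine on their tRNAs, rose by 0.71 (edgeR adjusted p = 0.0164) and 0.95 (edgeR adjusted p = 0.0204). For Aars the groups were separate, at 56.8 to 91.3 CPM in AD mice and 93.1 to 160 CPM in HF + AD mice, whereas for Sars they overlapped, at 42.1 to 80.0 CPM and 67.3 to 180 CPM. With the GC correction Aars had a log2 fold change of 0.44 and was not called.

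Among genes of the folding and degradation machinery, Txndc5, a disulfide isomerase, rose by 0.75 (31.6 to 40.1 CPM in AD mice, 47.6 to 84.9 CPM in HF + AD mice, edgeR adjusted p = 0.0102). Ppib, a prolyl isomerase of the collagen folding pathway, rose by 0.66 (96.3 to 169 CPM and 188 to 225 CPM, edgeR adjusted p = 0.0123). Ubxn4, which brings the segregase p97 to the ER membrane, rose by 0.88 (68.3 to 104 CPM and 125 to 204 CPM, edgeR adjusted p = 0.00616). Sec11c, a catalytic subunit of the signal peptidase, fell by 0.62 (136 to 216 CPM and 94.8 to 133 CPM, edgeR adjusted p = 0.0164). For these 4 genes the groups did not overlap.

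**Figure D3:**
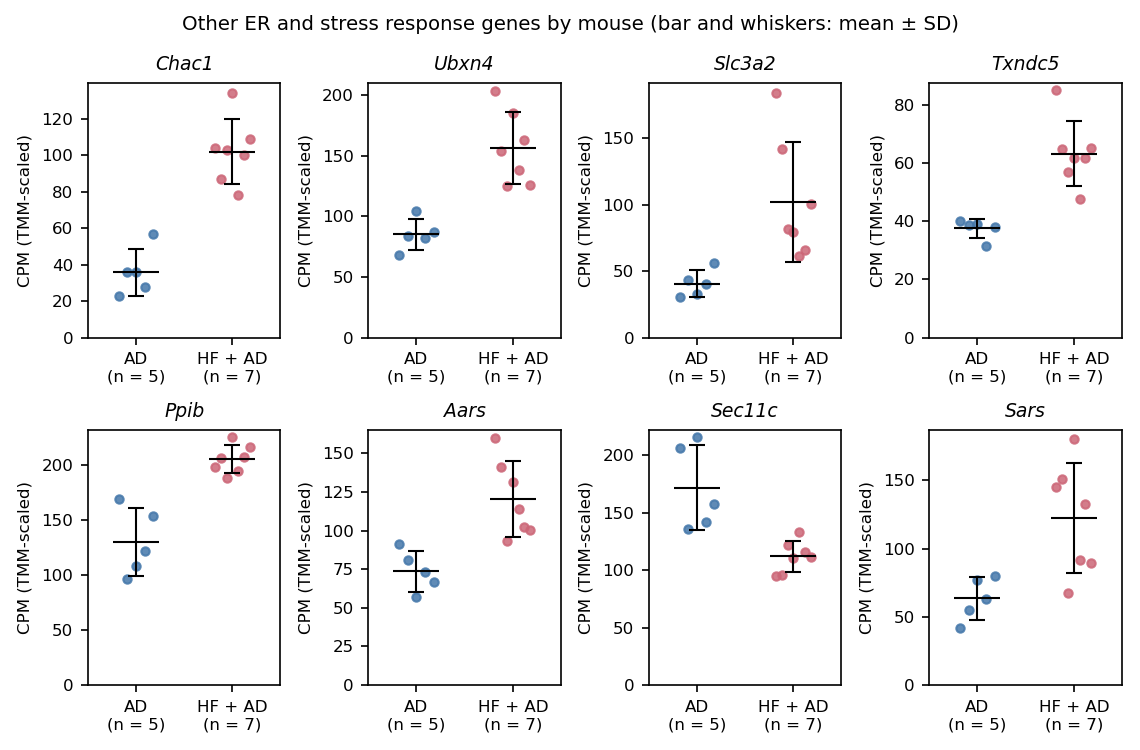
Levels of 8 other ER and stress response genes in each mouse, in CPM on TMM-scaled totals, with a linear axis from 0, 1 point per mouse and the mean ± SD of 5 AD and 7 HF + AD mice. The 7 genes other than Sec11c are higher in HF + AD mice, and the groups overlap only for Sars.

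The core of the amino acid response element, TGATGCAA, to which ATF4 binds with a C/EBP partner, was searched in the same way and was present in 294 of the 32851 windows, or 0.895%. It was found in 7 of the 90 other ER and stress genes with a window (Cnpy2, Atf3, Chac1, Nupr1, Slc7a11, Aars and Vldlr) and in 1 of the 29 ER genes above, Herpud1. The copies in the 2 carriers that rose are shown with their surroundings on the strand of the gene, where the complement of the core is in capitals.
Chac1: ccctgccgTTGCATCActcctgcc
Aars: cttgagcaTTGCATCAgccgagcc
The copies began 193 bases (chr2:119351049-119351056) and 112 bases (chr8:111033730-111033737) before the RefSeq starts, and the start of Aars in GENCODE M21 lies further upstream, so that its copy falls inside that span. The other 6 carriers were not called, among them Atf3 (log2 fold change 2.73, edgeR adjusted p = 0.0714) and Slc7a11 (0.014). Of all genes tested, 9.2% were called.

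The directions of the 5 called ER genes were kept in every alternative. Correcting each library for its trend with transcript GC content gave log2 fold changes of 0.91 for Hspa5, 1.01 for Calr, 0.70 for Pdia3 and −1.03 for Atf4, all still called, and −0.39 for Ssr3, which was not (edgeR adjusted p = 0.0800). In GENCODE M21, Pdia3 overlaps Catsper2 on the other strand and Hsp90b1 overlaps noncoding entries on both strands. A pseudogene of Calr, Calr-ps, is annotated too. Whether strand was used in counting is not given in the sources used here, so that reads of such pairs cannot be told apart.

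**Figure D4:**
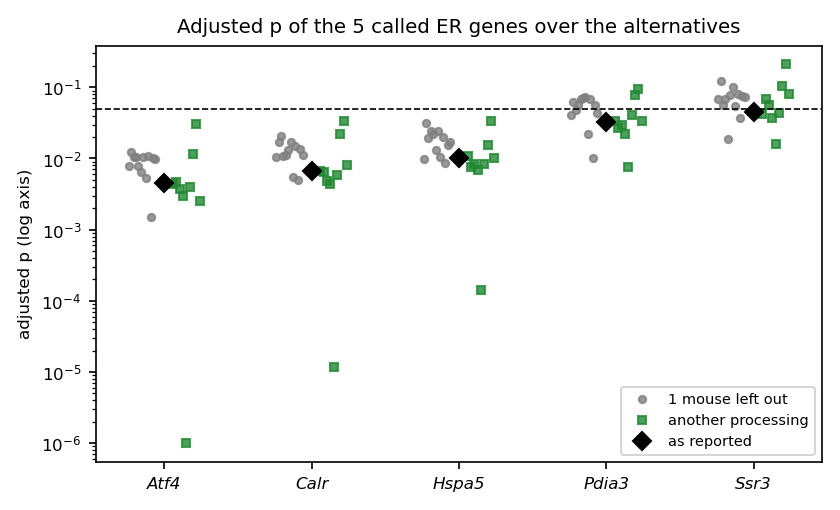
Adjusted p of the 5 called ER genes as reported, with 1 of the 12 mice left out and under 9 other ways of processing, on a log axis with the threshold of 0.05 as a dashed line. Atf4, Calr and Hspa5 stay under the line throughout, whereas Pdia3 and Ssr3 cross it.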

How the data were processed

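RNA of whole skin from 12 mice was read with a kit for the 3′ ends of mRNA (QuantSeq). For each mouse the authors deposited a table of read counts by gene symbol, not normalized. The submitters' processing notes name Bowtie2, bedtools and mm10, and counting settings and strand use are not given in the sources used here. Groups and mouse numbers came from the sample titles. Counts were fitted with edgeR 4.0.16 in R 4.3.3 (TMM, filterByExpr, quasi-likelihood F test on condition, Benjamini–Hochberg adjustment over 14163 genes, threshold 0.05), and standard errors were derived from the F statistic. CPM use TMM-scaled totals, except for the level that a count of 0 stands for. limma 3.58.1 and DESeq2 1.42.0 (on the genes kept by the filter) served as alternatives, as did other scalings, filters and weights, a GC correction in 20 bins and leaving out each mouse. GC content came from the longest transcript in GENCODE M21 (GRCm38). The 35 genes, the other lists, the searched elements and tests were chosen with earlier results of these data known. Named with the value of each AD mouse and the lowest, median and highest HF + AD value are called ER genes, Hspa5, Hsp90b1, the sensors, Xbp1, Atf4 and Ddit3, and, of the other list, the 8 called genes with the smallest p are named, with their values or ranges. The carriers of a searched element fall outside this rule. Each within-group pair of libraries differed beyond sampling noise (chi-square of at least 21.7 per gene). The labels number the samples of a group but do not describe how they were handled, so p-values measure the spread between these samples. On simulated counts for this comparison, with 14041 genes tested, 96 of 98 genes changed by 1 on the log2 scale and 97 of 97 changed by 2 were called, and 11 of 13846 unchanged genes. The simulation gave every gene the same relative spread between mice. It therefore does not show how many real changes of these sizes were missed. Python 3.11.15, NumPy 2.4.6, pandas 2.3.3 and matplotlib 3.10.9 were used for the other steps. The summed level of the B and plasma cell markers is not reported here.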

Additional observations from a re-analysis of the deposited data

Results flagged for a closer look

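In 11 of the 70 groups of values (35 ER genes in each of 2 conditions), 1 mouse stood apart from the others of its group by Dixon's criterion on log2(CPM + 1), where chance gives about 1 in 20. HF + AD mouse 1 was the highest of its group for Hspa5 (1170 CPM, next 743) and Pdia6 (492 CPM, next 429). AD mouse 2 was the highest for Ddit3 (72.2 CPM, next 31.2) and Xbp1 (119 CPM, next 85.6). AD mouse 5 was the lowest for Hsp90b1 (108 CPM, next 145) and Pdia3 (117 CPM, next 151), and the only AD mouse with reads on Ern1 (0.543 CPM, from 6 reads). AD mouse 3 was the lowest for P4hb (270 CPM, next 367) and for Trib3 (1.52 CPM, next 13.8), AD mouse 4 the highest for Eif2ak3 (15.2 CPM, next 9.22), and HF + AD mouse 2 the lowest for Trib3 in its group (5.04 CPM, next 9.96).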

How the results depend on the processing

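Of 882 pairs of a gene and an alternative (the 34 tested ER genes and 8 others, 21 alternatives), 819 kept direction and call, 33 lost and 4 gained a call, and 26 changed direction, in 11 genes that were not called. The 3 ER genes called higher were 2 to 4 in number over the alternatives, and Pdia3 lost its call in 9 of 21. The median log2 fold change of the ER genes, 0.15, lay between 0.079 (without HF + AD mouse 5) and 0.26 (replicate block). In these 2 alternatives the median of all genes was 0.0275 and 0.14, against 0.023 as reported. With limma-trend the medians of the ER genes and of all genes were 0.20 and 0.15. Without a filter they were 0.17 and 0.12, and with quality weights 0.21 and 0.12. With the GC correction they were 0.11 and −0.049, and with at least 10 counts in every library 0.16 and −0.017. The 2 called lower became 1 with library totals alone, without a filter, with sample quality weights, with the replicate block and with the GC correction, and 1 to 2 when 1 mouse was left out. With the replicate number as a block, 100 genes were higher and 92 lower among all genes, against 627 and 676, and 2 and 0 among the other ER genes, against 10 and 4. The same numbers correlated between −0.0815 and 0.0389, and different numbers between −0.122 and 0.108. Whether mice of the same number were handled together is not given, and these correlations cannot show it. HF + AD mice 6 and 7 have no AD mouse of the same number, so the block leaves them out of the comparison. With sample quality weights the counts were 329 and 437 for all genes and 6 and 1 for the other ER genes, DESeq2's Wald test gave 988 genes higher, and library totals alone gave 2 other ER genes lower. Library totals alone put 59.1% of all calls on the higher side and the GC correction 35.2%, against 48.1%. Without 1 mouse, 335 (HF + AD mouse 1) to 766 genes were higher and 314 (HF + AD mouse 2) to 766 lower, and 1 to 4 of the other ER genes were lower (1 when AD mouse 2 or HF + AD mouse 1 or 2 was left out). Uncalled genes changed direction with the GC correction (Derl2 0.010, Hyou1 −0.011, P4hb −0.13, Sdf2l1 −0.24), with quality weights (Eif2ak3 −0.078, Sec61b 0.081, Syvn1 0.087), with library totals (Pdia6 0.024), limma-trend (Syvn1 0.0022) and the block (Syvn1 0.039). Without 1 mouse the log2 fold changes ranged from −0.40 to 0.072 for Ddit3, −0.13 to 0.049 for Derl2, −0.048 to 0.32 for Dnajb11, −0.11 to 0.46 for Dnajb9, −0.049 to 0.43 for Eif2ak3, −0.061 to 0.076 for P4hb, −0.063 to 0.018 for Pdia6, −0.16 to 0.52 for Sdf2l1, −0.31 to 0.097 for Sec61b and −0.26 to 0.087 for Syvn1. The median of all genes lay 0.13 higher with limma-trend, 0.12 with the block and 0.10 with quality weights. The causes were not tested. Reads in an AD mouse were as few as 11 for Pdia4, 15 for Trib3 and 20 for Dnajb9, and Ern1 was too low to be tested.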

Other observations

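The other 6 called genes of the list of other ER and stress response genes were named after their values were seen. Among genes of the unfolded protein and integrated stress response, Atf6b, a relative of ATF6, rose by 0.76 on the log2 scale (40.5 to 60.2 CPM in AD mice, 50.4 to 146 CPM in HF + AD mice, edgeR adjusted p = 0.0464). Cebpg, a partner of ATF4 on DNA, rose by 0.65 (35.3 to 68.0 CPM and 61.4 to 80.3 CPM, edgeR adjusted p = 0.0236), and Shmt2, a mitochondrial enzyme of serine use, rose by 0.94 (7.87 to 27.5 CPM and 27.7 to 49.1 CPM, edgeR adjusted p = 0.0368). Of 6 listed subunits of the signal recognition particle, which brings ribosomes to the ER, 3 were lower, against 4.77% of all genes. These subunits were set apart after their values were seen, from a group in which 4 of 27 genes were lower. Srp9 fell by 0.49 (edgeR adjusted p = 0.0478), Srp19 by 0.57 (edgeR adjusted p = 0.0279) and Srp54a by 0.54 (edgeR adjusted p = 0.0369). Srp14, Srp68 and Srp72 were not called, with log2 fold changes of −0.43, 0.11 and 0.39. The groups did not overlap for Shmt2 and Srp54a. Of 21 alternatives, Cebpg was called in 18, Srp19 in 15, Shmt2 in 11, Srp54a in 10, Atf6b in 8 and Srp9 in 6.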
